A study of Mus musculus with 52 samples.

Results

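The genes that encode the TGF-β ligands (Tgfb1, Tgfb2 and Tgfb3), their receptors (Tgfbr1, Tgfbr2 and Tgfbr3) and the latent TGF-β binding proteins (Ltbp1, Ltbp2, Ltbp3 and Ltbp4) were selected by name. They are 10 of the 27525 genes measured, and all 10 passed the filter on low values in every comparison. The study treated mice carrying subcutaneous pancreatic tumors with a STING agonist and an agonistic antibody to the lymphotoxin β receptor (LTβR), alone or together, to induce tertiary lymphoid structures, and sequenced poly(A) RNA of whole tumors. Male C57BL/6NHsd mice of 8 to 10 weeks received KPC cells, 1 line derived from a pancreatic tumor of a mouse whose mutant driver alleles were switched on by Pdx1-Cre, so the tumor cells of all groups share these alleles. The untreated group received neither agonist. The ADU-S100 group received this STING agonist once, at 2 µg into the tumor, the anti-LTβR group received antibody 4H8 intraperitoneally 4 times at 100 µg, and the combination group received both. Tumors were collected on day 14, with 8 tumors in each of the 4 groups. Reads recovered for these libraries from a second deposited set of counts numbered 12762453 to 15591986 per library. The values below are the authors' normalized counts, taken to be gene counts divided by 1 size factor per library.

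TGF-β is secreted in a latent form, held by its own propeptide, and a latent binding protein ties this complex to fibrillin in the extracellular matrix. Integrins and proteases free the ligand, which binds the type II receptor TGFBR2, directly or after presentation by the coreceptor TGFBR3 (betaglycan), and TGFBR2 then activates the type I receptor TGFBR1 and through it SMAD2 and SMAD3. In tumors the pathway is known for activating fibroblasts, for matrix deposition and for restraining T cells.

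The promoters of Tgfb1, Tgfb2 and Ltbp1 are shown as examples, of which Tgfb1 and Ltbp1 fell and Tgfb2 rose in tumors given both agents. Each window is the 250 bases before the RefSeq start on GRCm38.p6, and capitals mark the GC box GGGCGG, the TATA box TATAAA, the E-box CACGTG and the cyclic AMP response element TGACGTCA, searched on both strands.
Tgfb1, chr7:25686752-25687001, plus strand: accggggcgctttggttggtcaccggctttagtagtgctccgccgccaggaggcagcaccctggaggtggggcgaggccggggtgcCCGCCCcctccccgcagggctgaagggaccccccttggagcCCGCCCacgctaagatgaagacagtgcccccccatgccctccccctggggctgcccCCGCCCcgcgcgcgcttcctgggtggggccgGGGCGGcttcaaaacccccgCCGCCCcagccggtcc
Tgfb2, chr1:186705990-186706239, minus strand: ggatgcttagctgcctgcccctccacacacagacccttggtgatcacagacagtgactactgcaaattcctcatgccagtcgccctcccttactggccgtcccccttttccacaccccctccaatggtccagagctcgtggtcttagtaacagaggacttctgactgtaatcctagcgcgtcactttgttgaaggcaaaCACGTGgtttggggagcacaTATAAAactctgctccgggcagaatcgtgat
Ltbp1, chr17:75005279-75005528, plus strand, the first of its 2 windows: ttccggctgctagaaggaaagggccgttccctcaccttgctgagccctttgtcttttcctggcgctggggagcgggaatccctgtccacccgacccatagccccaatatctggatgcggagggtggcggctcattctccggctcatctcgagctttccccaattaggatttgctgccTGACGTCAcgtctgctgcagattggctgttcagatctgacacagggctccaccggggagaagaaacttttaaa
The Tgfb1 window held 5 GC boxes and had a GC content of 75.2%, against a median of 52.4% over 32536 windows of the genome. The Tgfb2 window held 1 E-box, 51 bases before the start, and 1 TATA box 31 bases before it. The Ltbp1 window held 1 cyclic AMP response element, 73 bases before the start. Among all windows 33.0% held the GC box, 12.3% the TATA box, 6.04% the E-box and 1.56% the cyclic AMP response element. The SMAD box GTCTAGAC (0.169% of windows) and NF-κB-like and interferon-response-like motifs (4.11% and 2.98%) were also searched and had no match in these 3 windows. Such matches describe letters in a window and not binding sites. RefSeq windows were found for 8 of the 10 members, all but Tgfb3 and Tgfbr3. Of those not shown, the windows of Tgfbr2 and Ltbp3 and the second windows of Tgfbr1 and Ltbp1 had no match to any motif searched. The 3 Ltbp4 windows held 3, 5 and 7 GC boxes, with a GC content of 64.4% in the first and 79.2% in the others. The first Tgfbr1 window and the Ltbp2 window held 2 GC boxes each.

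Tumors given both agents differed from untreated tumors in all 10 members, 5 of them higher and 5 lower. The ligand gene Tgfb2 and the betaglycan gene Tgfbr3 rose most, to 1.81 and 1.78 times the untreated mean, and Ltbp2, Tgfbr2 and Tgfbr1 rose to 1.54, 1.37 and 1.17 times. Ltbp4 and Ltbp1 fell most, to 0.605 and 0.623 times the untreated mean, and Tgfb3, Tgfb1 and Ltbp3 fell to 0.738, 0.751 and 0.780 times. These calls are at an adjusted p under 0.05 by limma with an intensity trend, run on log2(normalized count + 1), with Benjamini-Hochberg adjustment over all genes tested, and differences below are on that scale unless given as ratios of means. Calls were common in this comparison: 43.2% of the 16909 genes tested were called, 19.6% higher and 23.6% lower. No member was both called and 2-fold different, as 6.12% of the genes were. The groups did not overlap for 5 members (Tgfb1, Tgfb2, Tgfbr3, Ltbp1 and Ltbp4), against 10.7% of the genes tested. The median difference of the members was -0.06, beside -0.02 over all genes tested.

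The 32 tumors also differed in RNA of marker genes of other cells. Blood endothelial markers summed to 1330 to 1908 normalized counts in untreated tumors and 2454 to 3562 in combination tumors, and fibroblast markers to 63084 to 100073 and 105500 to 383133, so neither sum overlapped between these groups. Tumor epithelial markers summed to 15947 to 28939 in untreated and 6829 to 14654 in combination tumors. Skeletal muscle markers ran from 3802 to 231359 over all tumors, with no tumor between 9300 and 38380, and 5 untreated, 2 ADU-S100, 2 anti-LTβR and 3 combination tumors lay below that gap. The part of the endothelial, fibroblast and epithelial shifts in the members' results was not tested, fits that take the muscle sum into account are given beside the results, and in whole tumors fewer cells of a type and less RNA per cell cannot be told apart.

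Among the ligands, Tgfb1 fell and Tgfb2 rose in combination tumors, each without overlap with untreated tumors. Tgfb1 (chr7:25687002-25705077, plus strand; GRCm38), the ligand best known for immune regulation, had a lowest, median and highest value of 5616, 5813 and 6757 normalized counts without treatment and of 3733, 4502 and 5335 after both agents. All 8 combination tumors were below the lowest untreated tumor, a difference of -0.42 ± 0.0637 (SE, n = 8 per group, limma adjusted p = 0.000109). In ADU-S100 tumors Tgfb1 ranged from 5758 to 6868 (median 6093) and in anti-LTβR tumors from 5164 to 5969 (median 5635), and both ranges overlapped the untreated one. Tgfb2 (chr1:186622792-186705989, minus strand), a ligand that binds TGFBR2 poorly without betaglycan, ranged from 133 to 185 in untreated tumors (median 149), from 127 to 204 after ADU-S100 (median 151) and from 159 to 249.5 after anti-LTβR (median 186). Combination tumors held 227 to 389.8 (median 269.6), all 8 above the highest untreated tumor, with a difference of 0.84 ± 0.109 (SE, n = 8 per group, limma adjusted p = 3.57e-05). Exons of Tgfb2 overlap the antisense gene Gm29491, which was not analysed here, and how the authors' counting used strand is not given in the sources used here, so where a member's exons overlap a gene on the other strand the reads of both may not be separated. Tgfb3 (chr12:86056745-86079041, minus strand), the third ligand, had a lowest, median and highest value of 1577, 2089 and 3285 without treatment and of 1339, 1549 and 1929 after both agents. These ranges overlapped, with 5 combination tumors below all untreated ones, and the difference was -0.42 ± 0.118 (SE, n = 8 per group, limma adjusted p = 0.00912). ADU-S100 tumors held 1511 to 2962 of Tgfb3 (median 2173) and anti-LTβR tumors 1429 to 1997 (median 1779.5), and both overlapped the untreated tumors. The adjusted p of Tgfb3 was 0.0557 in libraries above 14000000 reads.

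**Figure D1:**
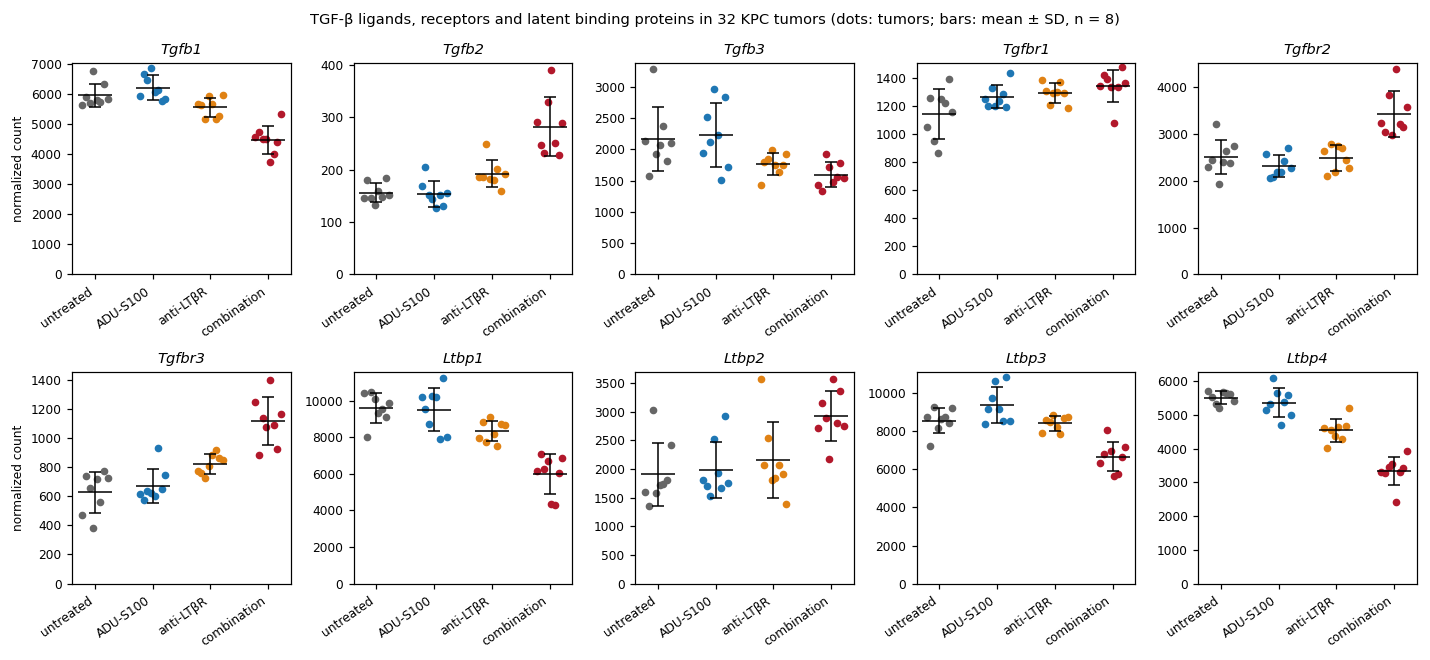
Normalized counts of the 10 genes in each tumor, 1 panel per gene, with 1 dot per tumor and the mean ± SD of 8 tumors per group. The combination tumors lie apart from the untreated tumors for Tgfb1, Tgfb2, Tgfbr3, Ltbp1 and Ltbp4 and overlap them for the other 5 genes.

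All 3 receptor genes rose in combination tumors, and Tgfbr3 rose without overlap. Tgfbr3 (chr5:107106570-107289629, minus strand), the coreceptor betaglycan, ranged from 379 to 771 normalized counts in untreated tumors (median 690.3), from 572 to 929 after ADU-S100 (median 632) and from 724 to 919.9 after anti-LTβR (median 831). Combination tumors held 886 to 1402 (median 1113), all 8 above the highest untreated tumor, with a difference of 0.85 ± 0.14 (SE, n = 8 per group, limma adjusted p = 0.000185). Tgfbr2 (chr9:116084293-116175360, minus strand), the receptor that binds the ligand first, ran from 1932 to 3199.95 without treatment, with a median of 2422, and from 2965 to 4381 after both agents, with a median of 3215. Of the combination tumors 4 lay above every untreated tumor, and the difference was 0.45 ± 0.0954 (SE, n = 8 per group, limma adjusted p = 0.00127). ADU-S100 tumors held 2047 to 2694 of Tgfbr2 (median 2233) and anti-LTβR tumors 2095 to 2789 (median 2536), within the untreated range. Tgfbr1 (chr4:47353222-47414931, plus strand), the kinase that phosphorylates SMAD2 and SMAD3, ranged from 869 to 1396 in untreated tumors (median 1193), from 1191 to 1435 after ADU-S100 (median 1244), from 1186 to 1388 after anti-LTβR (median 1298) and from 1083 to 1477 after both (median 1353). Its groups overlapped widely, with 2 combination tumors above all untreated ones and a difference of 0.24 ± 0.0894 (SE, n = 8 per group, limma adjusted p = 0.0381). That call was lost without untreated replicate 3 (0.21, adjusted p = 0.0724) and with no filter on low values (adjusted p = 0.0530), and also with the muscle marker sum as a covariate (0.22, adjusted p = 0.0774) and in tumors with low muscle markers (0.16, adjusted p = 0.464).

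The latent binding proteins divided, since Ltbp1, Ltbp3 and Ltbp4 fell and Ltbp2 rose. Ltbp4 (chr7:27305136-27337692, minus strand), which binds latent TGF-β1 and takes part in elastic fiber assembly, ranged from 5186 to 5708 normalized counts in untreated tumors (median 5572), from 4684 to 6078 after ADU-S100 (median 5356) and from 4012 to 5192 after anti-LTβR (median 4579). Combination tumors held 2408 to 3927 (median 3370.02), all below the lowest untreated tumor, a difference of -0.74 ± 0.0724 (SE, n = 8 per group, limma adjusted p = 6.64e-06). Ltbp1 (chr17:75005568-75392512, plus strand), which tethers latent TGF-β to the matrix, ranged from 8012 to 10486.5 in untreated tumors (median 9713), from 7928 to 11212 after ADU-S100 (median 9874) and from 7540 to 9086 after anti-LTβR (median 8429). Combination tumors held 4289 to 7107 (median 6214), again without overlap, a difference of -0.70 ± 0.105 (SE, n = 8 per group, limma adjusted p = 9.32e-05). Ltbp3 (chr19:5740904-5758532, plus strand), which also binds the latent complex, ranged from 7248 to 9282.5 in untreated tumors (median 8698), from 8369 to 10851.5 after ADU-S100 (median 9174), from 7844 to 8860 after anti-LTβR (median 8547) and from 5672 to 8048 after both (median 6748). Only 1 combination tumor reached the untreated range, and the difference was -0.36 ± 0.0715 (SE, n = 8 per group, limma adjusted p = 0.000766). Ltbp2 (chr12:84783212-84876532, minus strand), the family member that does not bind latent TGF-β, ranged from 1353 to 3018 in untreated tumors (median 1725), from 1531 to 2924 after ADU-S100 (median 1787), from 1386 to 3575 after anti-LTβR (median 1986) and from 2165 to 3568 after both (median 2837). Its groups overlapped, with 3 combination tumors above all untreated ones, and the difference was 0.65 ± 0.142 (SE, n = 8 per group, limma adjusted p = 0.00161). In tumors below the muscle gap, 5 untreated against 3 combination, 9 of 10 members were called, against 20.7% of all genes, as were 9 with the muscle sum as a covariate (40.8%). In tumors above it, 3 untreated against 5 combination, 5 members were called, against 12% of all genes. The 5 others differed there by -0.42 for Tgfb3, 0.57 for Ltbp2, 0.28 for Tgfbr2, 0.28 for Tgfbr1 and -0.30 for Ltbp3 (limma adjusted p = 0.214, 0.143, 0.146, 0.0903 and 0.136). Tgfbr3 was called on both sides of the gap, with a difference of 0.53 above it and 1.17 below it.

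Given alone, the anti-LTβR antibody went with calls for 4 members and ADU-S100 with none. Both comparisons use the untreated tumors described above. After anti-LTβR, Tgfbr3 and Tgfb2 rose by 0.43 ± 0.126 and 0.30 ± 0.0887 (SE, n = 8 per group, limma adjusted p = 0.0333 and 0.0343), and Ltbp4 and Ltbp1 fell by 0.28 ± 0.0453 and 0.20 ± 0.0581 (SE, n = 8 per group, limma adjusted p = 0.00172 and 0.0308). Of 16691 genes tested 15.3% were called, 7.21% higher and 8.1% lower. In the same comparison 3 of 6 blood endothelial and 3 of 4 lymphatic endothelial markers rose, and 3 of 5 tumor epithelial and 4 of 5 mast cell markers fell, and their part in the result was not tested. No member separated the anti-LTβR from the untreated tumors without overlap, as 1.77% of genes did, although 7 of 8 anti-LTβR tumors lay below every untreated tumor for Ltbp4. Without anti-LTβR replicate 3 Tgfb2 and Ltbp1 were no longer called, at differences of 0.24 and -0.19 (adjusted p = 0.0524 and 0.0534), which left 2 members beside 13% of all genes. In a joint fit of all 4 groups Ltbp1 was not called (adjusted p = 0.120), and in libraries above 14000000 reads 1 member was called, beside 9.12% of all genes. With the muscle sum as a covariate 1 member, Ltbp4, was called, beside 8.89% of all genes, and the adjusted p was 0.101 for Tgfbr3 (0.32), 0.0596 for Tgfb2 and 0.0605 for Ltbp1. In tumors above and in tumors below the muscle gap 0 members were called, beside 0.337% and 0.00567% of all genes. The other 6 members differed by -0.27 to 0.19, among them Tgfb3 by -0.27 ± 0.113 (adjusted p = 0.111) and Tgfbr2 by -0.01 ± 0.088 (adjusted p = 0.96).
After ADU-S100 the 10 differences lay between -0.11 for Tgfbr2 and 0.16 for Tgfbr1, and limma called 0 members and 0.0% of 16613 genes. At an unadjusted p under 0.05 there were 0 members and 2408 genes, and on recovered reads edgeR called 1 gene and DESeq2 39, none of them members. The difference plus or minus 2 SE ran from -0.22 to 0.17 for Tgfb2, from -0.14 to 0.05 for Ltbp4 and from -0.16 to 0.40 for Tgfbr3. It ran from -0.0003 to 0.26 for Ltbp3 and from -0.008 to 0.32 for Tgfbr1, so small changes in these members are not excluded.

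Adding ADU-S100 to the antibody went with further differences in 8 members. Against anti-LTβR tumors, the combination tumors were higher in Tgfb2 by 0.54 ± 0.111, in Ltbp2 by 0.48 ± 0.15, in Tgfbr2 by 0.46 ± 0.0836 and in Tgfbr3 by 0.43 ± 0.0822 (SE, n = 8 per group, limma adjusted p = 0.00283, 0.0267, 0.00152 and 0.00199). Ltbp1 fell by 0.50 ± 0.1, Ltbp4 by 0.45 ± 0.0773, Ltbp3 by 0.34 ± 0.0626 and Tgfb1 by 0.32 ± 0.0605 (SE, n = 8 per group, limma adjusted p = 0.00244, 0.00112, 0.00156 and 0.00191). Tgfb3 and Tgfbr1 differed by -0.15 and 0.05 (limma adjusted p = 0.161 and 0.518). In this comparison 26.6% of 16932 genes were called, 11.3% higher and 15.3% lower, and Tgfbr2, Ltbp1 and Ltbp4 did not overlap, as for 3.15% of genes. The Ltbp2 call was lost in libraries above 14000000 reads (0.31, adjusted p = 0.227) and without combination replicate 5 (0.44, adjusted p = 0.0553).
Against ADU-S100 tumors, 9 members were called, the exception being Tgfbr1 (0.08, limma adjusted p = 0.242), and 46.2% of 16811 genes were, 20.2% higher and 26.0% lower. Tgfb1, Tgfb2, Tgfbr2, Ltbp1, Ltbp3 and Ltbp4 did not overlap, as for 12% of genes, and the largest differences were 0.86 for Tgfb2 and 0.73 for Tgfbr3 upward and -0.69 for Ltbp4 and -0.68 for Ltbp1 downward (limma adjusted p = 4.03e-05, 4.82e-05, 1.23e-05 and 0.000151).
In each of these 2 comparisons 8 of 8 fibroblast, 6 of 6 blood endothelial and 4 of 4 lymphatic endothelial markers rose. In each, 3 of 5 tumor epithelial markers fell and 0 rose, and the part of these cells in the members' results was not tested. With the muscle sum as a covariate the combination differed from anti-LTβR tumors in 8 members and from ADU-S100 tumors in 9, and in tumors above the muscle gap also in 8 and 9. In the tumors below it, 3 against 2 in each comparison, 0 members were called, beside 0.0795% and 0.00571% of all genes.

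The interaction asks whether the effect of ADU-S100 differed between tumors with and without the antibody, in 1 fit of all 32 tumors. It was called for 6 members, against 18.4% of 17649 genes, 7.33% positive and 11% negative. It was positive for Tgfbr2 (0.57 ± 0.123) and Tgfb2 (0.56 ± 0.148), with limma adjusted p = 0.00223 and 0.00849. It was negative for Ltbp1 (-0.48 ± 0.129), Ltbp3 (-0.47 ± 0.0908), Ltbp4 (-0.41 ± 0.0916) and Tgfb1 (-0.38 ± 0.0776), with limma adjusted p = 0.00931, 0.000962, 0.00285 and 0.00156. Tgfbr3 had an interaction of 0.31 ± 0.169 and Ltbp2 of 0.41 ± 0.227 (limma adjusted p = 0.209 and 0.213), Tgfb3 of -0.19 and Tgfbr1 of -0.11 (0.472 and 0.485). The same 32 tumors gave a difference between any of the 4 groups for all 10 members, from an adjusted p of 2.06e-09 for Ltbp4 to 0.0284 for Tgfbr1 in limma's F test, against 50.6% of genes called. The interaction was called for 6 members with the muscle sum as a covariate, for 7 in tumors above the muscle gap and for 0 in the tumors below it, where 0.0% of all genes were called. It was also called, and positive, for 8 of 8 fibroblast and 6 of 6 blood endothelial markers, whose part in the members' results was not tested.

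**Figure D2:**
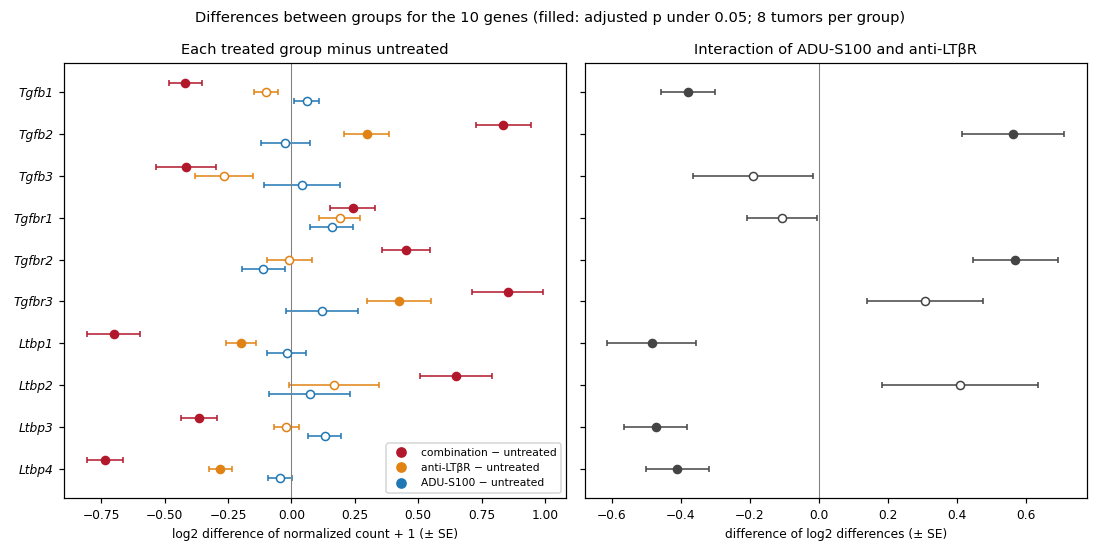
Left, log2 differences of the 10 genes between each treated group and untreated tumors; right, the interaction of the 2 agents, both ± SE with filled points at an adjusted p under 0.05. All 10 combination points are filled, 4 of the anti-LTβR points and none of the ADU-S100 points, and 6 interactions are filled.

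Per kilobase of exon, Tgfb1 was the most abundant member and Tgfb2 the least in untreated tumors. Tgfb1 had 1181 normalized counts per kilobase, followed by Ltbp3 at 944, Ltbp1 at 898, Ltbp4 at 852, Tgfb3 at 639, Tgfbr2 at 305, Ltbp2 at 232, Tgfbr1 at 175, Tgfbr3 at 95.9 and Tgfb2 at 26.9. In combination tumors Tgfb1 stood at 887 ± 94.6 (SD, n = 8), Ltbp3 at 736 ± 85.6, Ltbp1 at 559 ± 100.9, Ltbp4 at 516 ± 66.3, Tgfb3 at 472 ± 58.1, Tgfbr2 at 417 ± 58.8 and Ltbp2 at 357 ± 53.1. In that order Ltbp1 and Ltbp4, Ltbp4 and Tgfb3, and Tgfb3 and Tgfbr2 lay closer to each other than the SD of either neighbour. The length used moved some levels by over 1.5 times. By the longest transcript, Tgfb1 had 2315, Ltbp3 1494 and Ltbp1 1439 normalized counts per kilobase in untreated tumors, while Tgfb3 was the same, and in combination tumors Ltbp2 (432) then stood above Tgfbr2 (422).
Summed per kilobase, the 3 ligands went from 1847 ± 137 (SD, n = 8) in untreated to 1407 ± 105 in combination tumors, the 4 latent binding proteins from 2926 ± 186 to 2168 ± 205, and the 3 receptors from 577 ± 71.2 to 794 ± 66.3. Tgfb2 made up 1.47% of the ligand sum in untreated and 3.5% in combination tumors, Tgfb1 64.2% and 63.0%, and Tgfb3 34.3% and 33.5%. Ltbp2 made up 7.87% and 16.7% of the binding protein sum, Ltbp1 30.7% and 25.6%, and Ltbp4 29.2% and 23.8%. Tgfbr3 made up 16.5% and 21.4% of the receptor sum and Tgfbr1 30.5% and 26.2%. By the longest transcript, Tgfb1, Tgfb3 and Tgfb2 made up 77.6%, 21.3% and 1.03% of the ligand sum in untreated and 76.6%, 20.9% and 2.46% in combination tumors, and Ltbp2 6.57% and 14.1% of the binding protein sum. These sums and shares are descriptions of the values tested above.

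**Figure D3:**
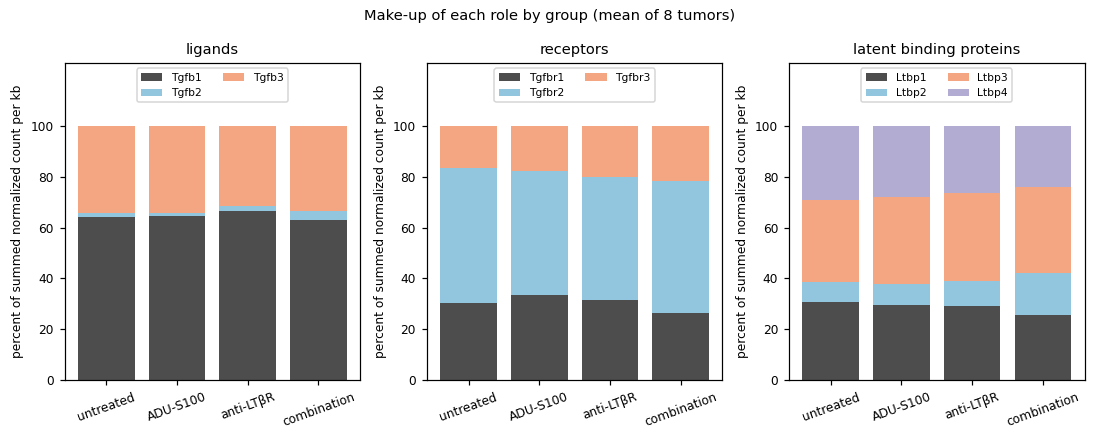
Share of each gene in the summed normalized count per kilobase of its role, as stacked bars of the mean of 8 tumors in percent for the 4 groups. Ltbp2 takes 7.87% of the latent binding protein sum in untreated and 16.7% in combination tumors, and Tgfb2 1.47% and 3.5% of the ligand sum.

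The counts of the lists below stand against 19.6% of all genes higher and 23.6% lower in combination tumors, and 7.21% higher and 8.1% lower after anti-LTβR. Of 13 genes of SMAD signaling and its brakes, 10 fell and 0 rose in combination tumors, with a median of -0.24 against -0.02 over all genes tested. Smad3, a transcription factor that TGFBR1 phosphorylates, fell by 0.71 ± 0.0756 (SE, n = 8 per group, limma adjusted p = 1.09e-05), and Smad4, its shared partner, fell by 0.21 (adjusted p = 0.00438). Smad7, the inhibitory SMAD, fell by 0.52, and the corepressors Tgif1, Skil and Ski fell by 0.52, 0.50 and 0.21. Ppm1a, Pmepa1, Smurf2 and Nedd4l fell by 0.28, 0.26, 0.24 and 0.22. Smad2 differed by -0.11 (adjusted p = 0.140), and Smad6 and Smurf1 were not called. After anti-LTβR alone 2 of the 13 were called, near the 15.3% of all genes: Smad3 fell by 0.26 and Tgif1 fell by 0.21. After ADU-S100 0 were called, beside 0.0% of all genes tested.

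Of 17 genes of TGF-β latency and activation, 10 rose and 4 fell, with a median of 0.49. The matrix genes Fbn2, Emilin1 and Fbn1 rose by 1.5, 1.07 and 0.66, and the proteases Mmp9, Mmp2, Mmp14 and Bmp1 by 1.52, 0.92, 0.61 and 0.48. Lrrc32 (GARP) and Nrros, which hold latent TGF-β at the surface of cells, rose by 0.52 and 0.49, and Itgb3 rose by 0.55. Itgav, the integrin subunit shared by the activating heterodimers, fell by 0.49 and its partners Itgb1 and Itgb5 by 0.27 and 0.23, while Furin, which cleaves the propeptide, fell by 0.14. After anti-LTβR Itgb3 and Fbn1 rose by 0.54 and 0.38 and Itgb5 fell by 0.20.

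Of 9 coreceptors and receptor regulators, 2 rose and 3 fell in combination tumors, with a median of -0.08, near the 19.6% higher and 23.6% lower over all genes. Eng and Acvrl1, the endoglin and ALK1 receptors of endothelial cells, rose by 0.76 and 0.82, and Nrp1, Cav1 and Zfyve9 fell by 0.54, 0.51 and 0.26. Beside them stand the blood endothelial markers, 6 of 6 of which rose, with a median of 0.98. After anti-LTβR alone Eng and Acvrl1 rose by 0.22 and 0.30 and Cav1 fell by 0.23.
Of 14 genes that TGF-β is known to induce, 6 rose and 3 fell, with a median of 0.14. Among those that rose, Col1a1, Postn and Acta2 did so by 1.54, 1.20 and 0.83, and Itgae and Tgfbi by 0.47 and 0.23. Klf10, Tsc22d1 and Cdkn1a fell by 0.66, 0.56 and 0.37. Col1a1 is also a fibroblast marker and Acta2 a mural cell marker, and 8 of 8 fibroblast and 5 of 6 mural cell markers rose. After anti-LTβR 0 of the 14 rose and 4 fell, Tagln by 0.86, Klf10 by 0.32, Cdkn1a by 0.26 and Tsc22d1 by 0.23.
Of 20 relatives in the BMP and activin branches, 6 rose and 5 fell, with a median of -0.03, near the 19.6% higher and 23.6% lower over all genes. Fstl1, Gdf15, Bmpr1b, Inhbb, Acvr1b and Fst rose by 1.07, 0.82, 0.63, 0.57, 0.34 and 0.22, and Bmp2, Bmp4, Bmpr2, Acvr1 and Bmpr1a fell by 0.69, 0.49, 0.36, 0.34 and 0.26. After anti-LTβR 0 of the 20 rose and 1, Bmp4, fell. After ADU-S100 alone 0 genes of these 5 lists were called, beside 0.0% of all genes tested.

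**Figure D4:**
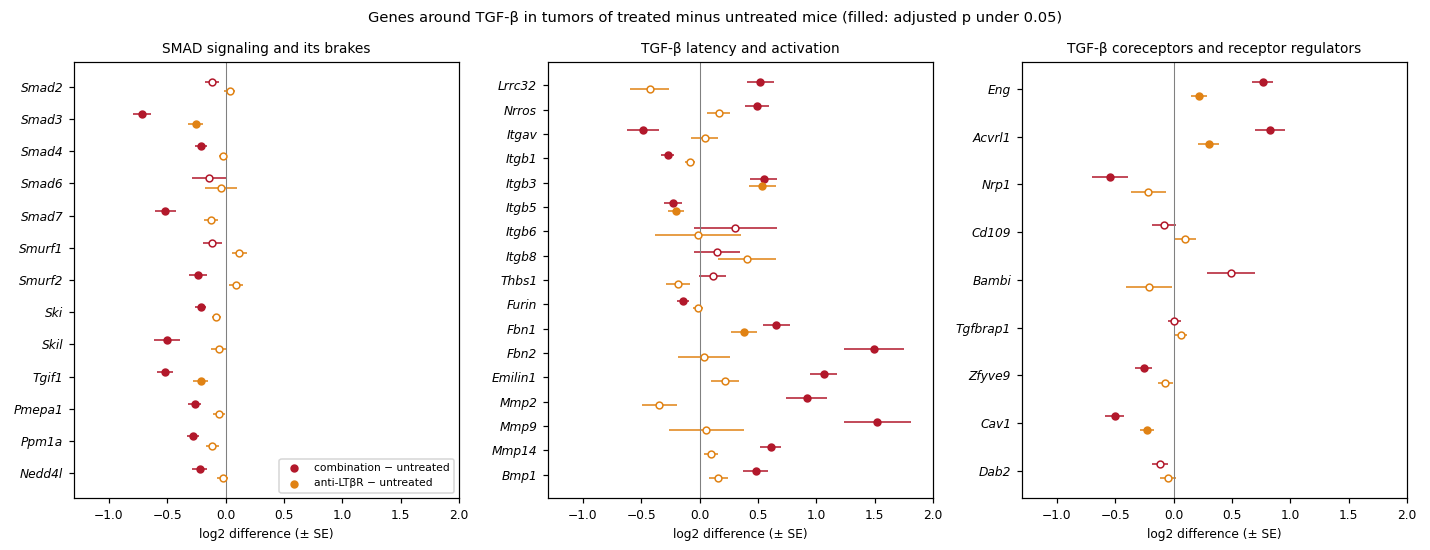
Log2 differences ± SE of the genes of 3 pathway lists in combination and anti-LTβR tumors against untreated tumors, with filled points at an adjusted p under 0.05. In combination tumors 10 of 13 SMAD genes fell and 0 rose, and 10 of 17 latency and activation genes rose.

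Among the other marker lists, all 4 lymphatic endothelial markers (median 2.09), 5 of 5 T cell, 3 of 4 B cell and 4 of 6 macrophage markers rose in combination tumors. Of 5 tumor epithelial markers 3 fell, Krt18, Krt8 and Krt19 by 1.46, 0.92 and 0.67. Of 5 mast cell markers 4 fell: Tpsb2, Mcpt4, Cma1 and Cpa3 fell by 2.29, 1.83, 1.78 and 1.49, and Kit rose by 0.39. Only 1 of 4 neutrophil markers (Csf3r) and 1 of 4 platelet or megakaryocyte markers tested (Itga2b) rose, and 0 muscle, adipocyte or keratinocyte markers were called. Of 71 marker genes, 0 were at 0 in any tumor. Within groups, as deviations from the group means over 32 tumors, Ltbp1 correlated with the epithelial sum at 0.75 and with the blood endothelial sum at -0.58, Tgfb1 with the blood endothelial sum at -0.63, and Tgfbr2 with it at 0.58. Tgfbr3 correlated with the fibroblast sum at 0.61, Tgfb2 at 0.48 and Ltbp2 with the macrophage sum at 0.43. Other values were of like size: Tgfb2 with the B cell sum at -0.50, Tgfbr3 with the epithelial sum at -0.52 and Tgfbr1 with the leukocyte marker at 0.52. Ltbp4, which fell most, correlated with the epithelial sum at only 0.20 and with the blood endothelial sum at -0.33. The muscle sum correlated with members between -0.26 and 0.32. The points of each correlation share a library and its size factor, and the part of these cells in the members' differences was not tested.

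**Figure D5:**
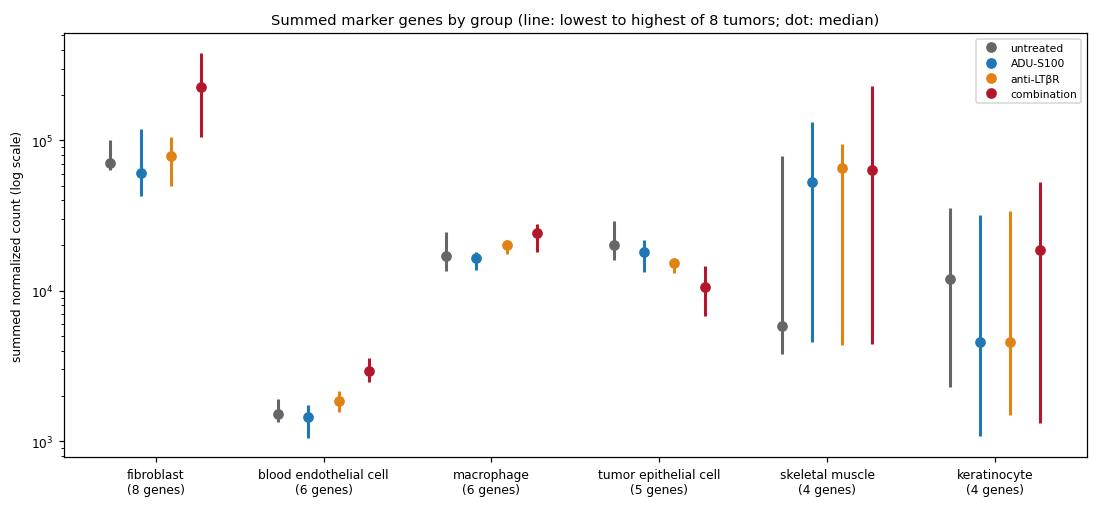
Summed normalized counts of 6 marker lists in each group on a log axis, with a line from the lowest to the highest of 8 tumors and a dot at the median. Blood endothelial and fibroblast sums of combination tumors lie above those of untreated tumors, epithelial sums lie below, and muscle sums spread widely in every group.

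Some pairs of members that moved the same way also varied together between tumors of a group and others did not. Ltbp1 and Ltbp3 correlated at 0.89 over the 32 tumors and at 0.73 after the group means were removed, Tgfb3 and Ltbp3 at 0.76 and 0.71, Tgfb1 and Ltbp4 at 0.89 and 0.54, and Tgfbr2 and Ltbp2 at 0.74 and 0.57. Tgfb1 and Tgfbr2 ran in opposite directions, at -0.84 and -0.54. Tgfb2 and Tgfbr3 correlated at 0.79 overall and at 0.33 within groups. Within groups Tgfb1 and Tgfb3 correlated at 0.04, Tgfbr3 and Ltbp2 at -0.01, Tgfbr1 and Tgfbr2 at -0.12 and Tgfb2 and Ltbp2 at -0.13. Among 13487 genes with a mean of at least 50, the genes most like each member over the 32 tumors by Pearson correlation were Tle1, Por and Zfp703 for Tgfb1 (Tle1 0.95), Htra1, Hhipl1 and Lama4 for Tgfb2 (Htra1 0.91), Nrp1, S100b and Fam20b for Tgfb3 (Nrp1 0.87). For the receptors they were Dgkh, Nfatc1 and Rev3l for Tgfbr1 (Dgkh 0.80), Adgrd1, Cercam and Lrrn4cl for Tgfbr2 (Adgrd1 0.93) and Steap3, Col6a6 and Zfp354c for Tgfbr3 (Steap3 0.94). For the latent binding proteins they were Pls3, Alcam and Pcdh19 for Ltbp1 (Pls3 0.96), Stab1, Tnfaip3 and Myo1g for Ltbp2 (Stab1 0.87), Adamtsl3, Nck2 and Clstn1 for Ltbp3 (Adamtsl3 0.91) and Thsd4, Cdh13 and Esyt2 for Ltbp4 (Thsd4 0.96). These correlations share the libraries and the group differences.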

How the data were processed

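Poly(A) RNA of 32 tumors, 8 per group by the labels, was sequenced from a kit that marks strand. The deposited table holds signal values, taken to be gene counts that the authors divided by size factors, which was not checked here. The submitters' processing notes name cutadapt 1.9, FastQC, HISAT2, STAR, StringTie, Partek, DESeq2, edgeR and mm39. The paper's methods describe HISAT2, an Ensembl mouse genome and StringTie for the mouse tumors, while its reporting summary names Partek and STAR for bulk RNA-seq. These differ, so the aligner and build behind this table are unclear. The use of strand in counting is not given in the sources used here. Gene lengths and positions come from GENCODE M21 on GRCm38. Whole reads (12762453 to 15591986 per library) were recovered from a larger table of 52 libraries, which has rows for 8 of the 10 members. Of its libraries 20 carry another source prefix, 15 of them with contradictory labels, and were not compared.

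Groups were compared with limma 3.58.1 (trend, two-sided) in R 4.3.3 on log2(value + 1), after edgeR 4.0.16's filterByExpr with a count minimum of 10, with Benjamini-Hochberg adjustment over all genes tested and a threshold of 0.05. edgeR's quasi-likelihood test and DESeq2 1.42.0 on recovered reads, other filters, a pseudocount of 0.1 and other sets of libraries were alternatives, and the fit was checked on simulated data. All 10 members were named in every comparison, with the list genes called in combination against untreated tumors, the anti-LTβR calls beside them, and the 3 most alike genes of each member. The members and lists were chosen with earlier results of these data known. The labels name no batch and do not say whether tumors came from separate mice, so p-values measure the spread between these samples. The study describes tumors sequenced singly, and its text differs on whether 1 experiment or several were combined. The labels give all 32 tumors the same source prefix and divide them no further, so no such term could be fitted. Values of some list genes are not reported here.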

Additional observations from a re-analysis of the deposited data

Results flagged for a closer look

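In 4 of 40 combinations of gene and group, 1 tumor stood apart from the other 7 by Dixon's test at the 95% level, which chance alone does in about 1 in 20 groups. They were Tgfb2 in anti-LTβR tumor 3 (249.53 normalized counts, the highest of its group), Tgfb3 in untreated tumor 3 (3284.92, the highest), Tgfbr1 in combination tumor 5 (1083.33, the lowest) and Ltbp4 in combination tumor 5 (2408.37, the lowest).

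The effect of ADU-S100 differed between tumors with and without the antibody for 6 members in limma's interaction test. The differences were -0.38 for Tgfb1 (adjusted p = 0.00156), 0.56 for Tgfb2 (0.00849), 0.57 for Tgfbr2 (0.00223), -0.48 for Ltbp1 (0.00931), -0.47 for Ltbp3 (0.000962) and -0.41 for Ltbp4 (0.00285) on the log2 scale, and all 6 were called after each of the 3 tumors above was left out.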

How the results depend on the processing

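In combination against untreated tumors no member changed direction under any alternative. Tgfb1, Tgfb2, Tgfbr3, Ltbp1 and Ltbp4 were called in every alternative that tested them, except that no member passed a 2-fold threshold. The difference of Tgfbr3 was 0.53 in tumors with high and 1.17 in tumors with low muscle markers, against 0.85. Members called were 9 to 10 when 1 library that stood apart was left out, 9 in tumors with low muscle markers, 9 with the muscle sum as a covariate, 5 in tumors with high muscle markers (where 12% of all genes were called, against 43.2%) and 0 at 2-fold. For anti-LTβR against untreated tumors, 4 became 1 in libraries above 14000000 reads, 1 with the muscle sum as a covariate, 0 in tumors with high and 0 in tumors with low muscle markers, 2 to 4 with 1 library left out and 0 at 2-fold. Over all genes the share called went from 15.3% to 9.12%, 8.89%, 0.337% and 0.00567% in the first 4 of these, and Ltbp4 differed by -0.28 in tumors with high and -0.27 in tumors with low muscle markers. For the combination against anti-LTβR, edgeR with library totals called 5 of the 8 members it tested. In edgeR with RLE or TMM size factors and in DESeq2, 6 of 8 were called. The 8 members called in the main fit include Tgfb1 and Ltbp4, which these count models did not test. Elsewhere 8 became 0 in tumors with low muscle markers, 7 to 8 with 1 library left out and 0 at 2-fold. Ltbp2 changed sign in tumors with low muscle markers (-0.0093, limma adjusted p = 0.986). Against ADU-S100, 9 became 0 in tumors with low muscle markers, 10 without combination replicate 5 and 0 at 2-fold, and the interaction went from 6 to 0 in tumors with low muscle markers and stayed at 6 with 1 library left out. Few tumors had low muscle markers (5 untreated, 2 ADU-S100, 2 anti-LTβR and 3 combination), and those fits called 0.0795%, 0.00571% and 0.0% of all genes in these last 3 comparisons, so 0 members there is near the share over all genes. For the other losses the cause was not tested. The muscle, covariate and single-library alternatives were chosen after seeing the data, and only these 3 libraries were left out. With replicate number as a block, 10, 2, 0, 8 and 9 members were called in the 5 group comparisons and 6 interactions, beside 41%, 9.95%, 0.012%, 26.9%, 43.3% and 18.7% of all genes, and the anti-LTβR calls lost were Tgfb2 and Ltbp1 (adjusted p = 0.0887 and 0.0761). The numbers did not pair the tumors: the mean correlation of same-numbered deviations was between -0.085 and 0.186, and at most 3 of 8 tumors correlated best with their own number. No setting called a member after ADU-S100 alone. Tgfb1 and Ltbp4 have no recovered reads, so the count models did not test them.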
